A study of Mus musculus with 6 samples.

Results

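Migration and positioning receptors were followed across the cell classes of mouse germinal center (GC) B-cell preparations. The set holds 9 genes of 31053 in the files. They are Cxcr4, Cxcr5, S1pr1, S1pr2, Gpr183, Ccr7 and Ccr6, which encode G protein-coupled receptors, together with Gna13, which encodes a G protein subunit, and Klf2, which encodes a transcription factor. Members were taken by gene symbol, as a set of receptors and regulators of lymphocyte positioning.

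GC B-cells divide in the dark zone (DZ), test their antigen receptor in the light zone (LZ) and move between these zones by reading chemokines and lipids. CXCR4 responds to CXCL12, which draws cells toward the DZ, and CXCR5 responds to CXCL13, which draws B-cells and follicular helper T cells into the follicle. S1PR2 couples to Gα13 and restrains migration, which holds cells in the GC, whereas S1PR1 guides lymphocytes out of the tissue toward blood or lymph. GPR183 (EBI2) senses oxysterols and directs activated B-cells to the outer follicle, CCR7 senses CCL19 and CCL21 of the T cell zone, and CCR6 senses CCL20 and is known from memory B-cells. KLF2 is a transcription factor of resting lymphocytes known to activate S1pr1.

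Transcripts of single cells were counted by a droplet-based 3′ assay in 6 libraries. All mice carried the Cγ1-Cre allele, a Cre recombinase placed in the Ighg1 locus and used to delete genes as B-cells join the GC, and the study describes splenic cells sorted 8 days after immunization with sheep red blood cells. The 3 libraries labelled as wild-type controls are called Smc3 wt/wt and the 3 libraries labelled Smc3 +/- are called Smc3 wt/-, for loss of 1 copy of the gene of a cohesin ATPase subunit. T cells and naive B-cells are not the cells in which this Cre acts. The ages and sexes of the mice were not given in the sources used here, and neither was which mice each library held. The methods list more Smc3 wt/wt mice than there are Smc3 wt/wt libraries here, so tests measure the spread between these libraries.

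The libraries held 5223325 to 35354257 unique molecular identifiers (UMIs, 1 per captured transcript), and 20847 of 22939 barcodes were kept. Cells were clustered without the 9 genes, and classes were named by markers that did not include them. There were 5487 DZ-like, 1327 LZ-like, 1862 naive or memory-like, 2073 plasma-lineage and 531 T cell-like cells. Of 20 DZ markers, 20 had their highest mean in the DZ-like class, against 14 of 20 LZ markers, 14 of 19 naive or memory markers, 27 of 27 plasma markers and 21 of 21 T cell markers in their own classes. The DZ markers are mostly genes of mitosis, so the DZ-like class is one of dividing cells. The material is labelled as GC B-cells, and the T cell-like, myeloid-like (661 cells), naive or memory-like and plasma-lineage classes lie outside that label. Pairs of libraries shared 4 to 36 kept barcodes.

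Smc3 did not separate the genotypes. Across all kept cells it stood at 144, 155 and 145 CPM (counts per 1000000 UMIs of the sum) in Smc3 wt/wt replicates 1, 2 and 3, then at 147, 28.2 and 161 CPM among those labelled Smc3 wt/-. With immunoglobulin genes left out the low value was 60.1 CPM, against 149 to 165 CPM in the other libraries, and in DZ-like cells of that library Smc3 stood at 108 CPM, against 154 to 188 CPM. Between genotypes Smc3 differed by -0.22 on the log2 scale (SE 0.29, adjusted p 0.928 from edgeR), and 0.03 without replicate 2 labelled Smc3 wt/-. The allele was made by targeting an early exon of the gene, and 3′ tags from outside the deleted part do not show the deletion itself. Whether the deletion lowers these tags in the cells here was not tested. By RNA sequencing the study reports lower Smc3 expression in lymphomas that carry the deletion. Genotypes are given below as labelled.

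One library stood apart before any member was read. Smc3 wt/- replicate 2 had 51.9% of its UMIs in immunoglobulin genes, against 2.37% to 3.90% in the other libraries. Of its kept cells 49.0% were plasma-lineage and 3.53% DZ-like, against 1.39% to 3.36% and 29.7% to 34.1% elsewhere. In its DZ-like cells a sum of 6 GC B-cell markers reached 647 CPM, against a median of 2050 over the libraries, and a sum of 3 naive or memory markers reached 228 CPM, against a median of 30.7. It also held most of the plasma-lineage and myeloid-like cells. Main values it moved are also given without it.

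Promoters are shown for 2 genes that were high in GC classes and 2 that were high in resting classes, since members of either kind followed each other across classes. A RefSeq promoter table (GRCm38.p6) covers 250 bases before to 50 after each start, and 6 of the 9 members had an entry there. S1pr2 and Gna13, the receptor and the G protein of the GC-retention pair, lie at chr9:20976744-20977043 (minus strand) and chr11:109362544-109362843 (plus strand). Klf2 and Gpr183, which were high in resting cells, lie at chr8:72318812-72319111 (plus) and chr14:121965144-121965443 (minus). Each window spans the region upstream of the RefSeq transcript and its first bases. Capitals mark a KLF core (CACCC, or GGGTG on the other strand) or a cyclic AMP response element (CRE, TGACGTCA, the same on both strands).
S1pr2: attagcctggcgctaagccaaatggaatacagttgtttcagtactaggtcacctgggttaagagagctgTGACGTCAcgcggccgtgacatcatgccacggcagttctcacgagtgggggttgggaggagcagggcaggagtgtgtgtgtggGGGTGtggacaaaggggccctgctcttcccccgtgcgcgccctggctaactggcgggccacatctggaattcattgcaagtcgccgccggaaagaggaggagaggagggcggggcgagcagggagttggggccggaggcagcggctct
Gna13: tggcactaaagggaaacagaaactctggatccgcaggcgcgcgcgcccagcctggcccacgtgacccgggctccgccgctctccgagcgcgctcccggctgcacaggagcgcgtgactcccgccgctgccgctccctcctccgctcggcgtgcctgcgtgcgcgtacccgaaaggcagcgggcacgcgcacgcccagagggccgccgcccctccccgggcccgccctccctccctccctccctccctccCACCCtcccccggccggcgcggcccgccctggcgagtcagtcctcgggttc
Klf2: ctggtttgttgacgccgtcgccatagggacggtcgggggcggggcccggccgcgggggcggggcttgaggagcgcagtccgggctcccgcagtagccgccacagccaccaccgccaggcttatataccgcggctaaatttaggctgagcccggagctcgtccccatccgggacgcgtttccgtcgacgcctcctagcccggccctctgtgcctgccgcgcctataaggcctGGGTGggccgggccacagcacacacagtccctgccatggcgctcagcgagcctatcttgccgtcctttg
Gpr183: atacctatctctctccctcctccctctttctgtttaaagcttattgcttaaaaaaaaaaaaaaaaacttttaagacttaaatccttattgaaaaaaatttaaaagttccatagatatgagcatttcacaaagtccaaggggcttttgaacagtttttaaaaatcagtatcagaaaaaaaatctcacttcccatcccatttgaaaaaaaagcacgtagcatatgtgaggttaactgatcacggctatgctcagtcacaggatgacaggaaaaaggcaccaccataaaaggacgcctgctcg

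The windows differed in base composition. Gna13 had 76.7% G and C, Klf2 69.3%, S1pr2 62.0% and Gpr183 35.3%, with a median of 52.7% over all promoters in the table. The KLF core occurred once each in the windows of Cxcr4, S1pr2, Gna13 and Klf2, and in neither Gpr183 nor the 2 entries of Ccr6, while 57.5% of 32851 promoters held it. A CRE occurred in S1pr2 and in 1.79% of all promoters. The FOXO core (TGTTTAC, or GTAAACA) occurred in none of the members with an entry and in 3.65% of all promoters. The motifs were chosen after the sequences had been seen, and a match is a description of letters.

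The retention pair was highest in GC cells. S1pr2 (ENSMUSG00000043895, chromosome 9, 20962361 to 20976781, minus strand, mm10) stood at 161, 124 and 126 CPM in DZ-like cells of Smc3 wt/wt replicates 1, 2 and 3, then at 124, 33.5 and 110 CPM among those labelled Smc3 wt/-. In LZ-like cells it stood at 79.8, 115 and 81.7 CPM and at 86.7, 6.38 and 87 CPM. All libraries were high in both zones except Smc3 wt/- replicate 2, whose LZ-like value rests on 3 UMIs. The DZ-like level exceeded the LZ-like level within 6 of 6 libraries, by a mean log2 ratio of 0.70 ± 0.59 (SD, n = 6; 5 CPM added), or 0.49 ± 0.32 without Smc3 wt/- replicate 2 (n = 5).

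Outside the GC classes S1pr2 was low. Means were 22 ± 12.1 CPM in T cell-like, 16.9 ± 10.2 in naive or memory-like and 13.1 ± 6.31 in plasma-lineage cells (SD, n = 6), and these neighbours kept no common order across libraries. After each cell was thinned to 2000 UMIs, 21.9% of DZ-like cells (1165 of 5323, exact 95% interval 20.8 to 23.0) and 15.5% of LZ-like cells (13.6 to 17.6) had an S1pr2 UMI. Free RNA in droplets gives UMIs to cells that do not express a gene. In myeloid-like cells, used here as that background, the share was 1.31% (0.481 to 2.82), and in plasma-lineage cells 0.875% (0.519 to 1.38). Both rest on Smc3 wt/- replicate 2, without which 2 of 41 myeloid-like (4.88%, 0.596 to 16.5) and 10 of 317 plasma-lineage cells (3.15%, 1.52 to 5.72) had a UMI, so the low classes cannot be ordered by this share. DZ-like cells stood at 22.2% and LZ-like cells at 16.7% without that library. Without thinning the 6-library shares were 51.0% of DZ-like, 36% of LZ-like, 4.97% of plasma-lineage and 1.51% of myeloid-like cells, at median depths of 5980, 5361, 14830 and 2689 UMIs, and the plasma-lineage share was 17.0% (55 of 324) without Smc3 wt/- replicate 2. Thinning keeps UMIs in proportion, and much of a plasma-lineage cell's total is immunoglobulin.

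Gna13 (ENSMUSG00000020611, chromosome 11, 109362831 to 109401369, plus strand) followed S1pr2 in the GC but was also found in T cells. DZ-like cells held 212, 180 and 175 CPM among Smc3 wt/wt libraries, then 152, 65.7 and 141 CPM among those labelled Smc3 wt/-. LZ-like cells held 131, 125 and 131 CPM and 115, 31.9 and 112 CPM. The DZ-like level was the higher in 6 of 6 libraries (log2 ratio 0.54 ± 0.23, SD, n = 6; 0.46 ± 0.14 without Smc3 wt/- replicate 2, n = 5). LZ-like and T cell-like cells (101 ± 30.7 CPM) did not keep an order, with LZ-like higher in 3 of 6 libraries. Naive or memory-like cells (55.4 ± 10.3 CPM) lay below T cell-like cells in 6 of 6 and below LZ-like cells in 5 of 6 libraries. They lay above plasma-lineage cells (35.2 ± 15.6 CPM) in 6 of 6, by a log2 ratio of 0.71 ± 0.66, but in 4 of 6 with a ratio of 0.14 under TMM or RLE scaling, and in 5 of 6 with 0.24 when immunoglobulin genes were left out.

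Cxcr4 (ENSMUSG00000045382, chromosome 1, 128588199 to 128592293, minus strand), the CXCL12 receptor, was highest in the DZ-like class among the compared classes. It stood at 64.1, 28.5 and 26.6 CPM there among Smc3 wt/wt libraries, then at 40.4, 19.6 and 20.3 CPM among those labelled Smc3 wt/-. LZ-like cells had 12.8, 5.04 and 4.72 CPM and 9.01, 4.25 and 3.76 CPM. No LZ-like value reached a DZ-like one, and the log2 ratio was 1.67 ± 0.19 (SD, n = 6). Replicate 1 was the highest of its genotype in either zone. The largest cluster, which lies outside the compared classes, had 28.6 CPM of Cxcr4 against 28.3 CPM in the largest DZ-like cluster. It was the higher in 4 of 6 libraries (log2 ratio -0.17 ± 0.63).

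The other compared classes had less Cxcr4 than DZ-like cells, each in 6 of 6 libraries. T cell-like cells had 0 to 30.8 CPM on 8 UMIs in all, naive or memory-like 7.06 ± 2.12 CPM and plasma-lineage 6.35 ± 3.01 CPM (SD, n = 6), and no order among these and LZ-like cells held in every library. After thinning to 2000 UMIs, 6.48% of DZ-like (5.83 to 7.18) and 1.24% of LZ-like cells (0.708 to 2.0) had a Cxcr4 UMI. Plasma-lineage cells had 0.340% (0.137 to 0.700), or 2 of 317 without Smc3 wt/- replicate 2 (0.631%, 0.0765 to 2.26), and myeloid-like cells, which can express this gene, 2.61%, or 0 of 41. Unthinned, 17.1% of DZ-like, 3.09% of LZ-like and 2.99% of plasma-lineage cells had one, and without that library 17.3%, 3.17% and 10.2% (33 of 324). Under RLE scaling the plasma-lineage level exceeded the LZ-like level in 6 of 6 libraries. Within the DZ-like class Cxcr4 was higher in cluster 6 (38.4 CPM), led by Ccnb2 and Cdc20, than in cluster 1 (28.3 CPM), led by Esco2 and Hist1h2ap, in 6 of 6 libraries. Cluster 8 (42.2 CPM), led by Cenpf and Ube2c, exceeded cluster 1 in 5 of 6 libraries and cluster 6 in 4 of 6. Smc3 wt/- replicate 2 had only 26 cells in cluster 6 and 27 in cluster 8.

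Cxcr5 (ENSMUSG00000047880, chromosome 9, 44511787 to 44561877, minus strand), the CXCL13 receptor, ran the other way. In LZ-like cells it stood at 95.8, 113 and 113 CPM among Smc3 wt/wt libraries, then at 111, 85.0 and 92.7 CPM among those labelled Smc3 wt/-. In DZ-like cells the values were 34.4, 39.6 and 45.4 CPM and 41.4, 57.3 and 44.6 CPM. The zones did not overlap, and the log2 ratio of DZ-like over LZ-like was -1.14 ± 0.33 (SD, n = 6). T cell-like (84.5 ± 32 CPM) and naive or memory-like cells (75.6 ± 19.1 CPM) lay near the LZ-like level and did not keep an order with each other. Both lay above plasma-lineage cells, at 7.63 ± 6.36 CPM.

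Among thinned cells 20.6% of LZ-like (18.5 to 22.9), 13.5% of naive or memory-like (11.6 to 15.6) and 13.1% of T cell-like cells (8.52 to 19.1) had a Cxcr5 UMI. Of the myeloid-like cells 0 of 459 had one, which allows a share of up to 0.654%. Such limits are 3 counts over the number of cells, and the exact 95% interval reaches slightly higher, to 0.8% here. Without Smc3 wt/- replicate 2 this was 0 of 41, which allows up to 7.32% (8.60% by the exact interval). Unthinned, the shares were 41.9%, 19.5%, 13.4% and 0 of 661 cells, which allows a share of up to 0.454%, and intervals and limits cover counting error only. The median depths were 5361 UMIs in LZ-like, 2456 in naive or memory-like and 1647 in T cell-like cells, and 175 of 531 T cell-like cells reached 2000 UMIs. Within the DZ-like class Cxcr5 was higher in cluster 6 (66.7 CPM) than in cluster 1 (37.7 CPM) and cluster 8 (44.2 CPM), each in 6 of 6 libraries.

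**Figure D1:**
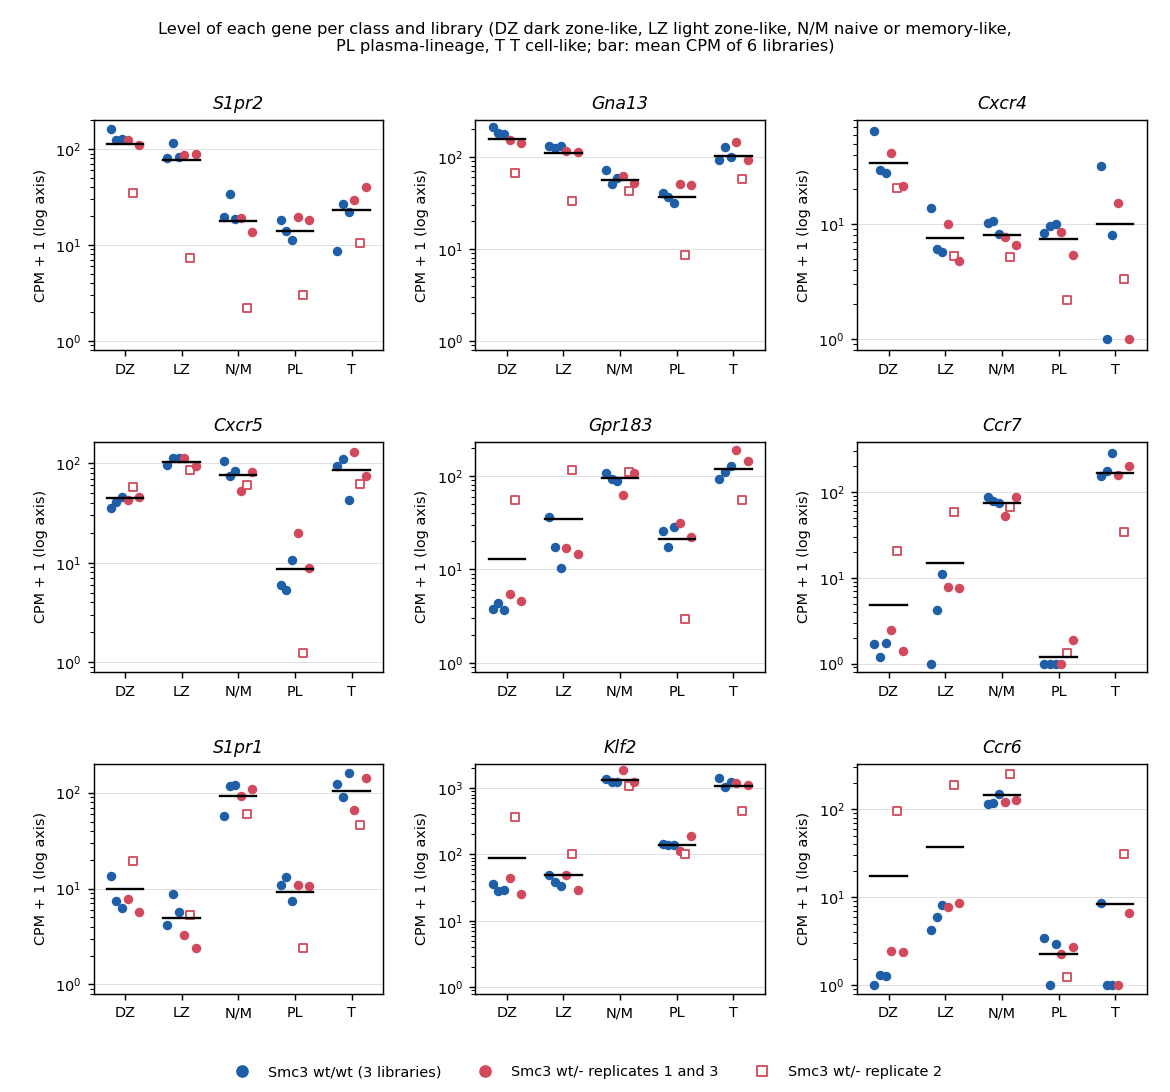
Level of each of the 9 genes, in CPM with 1 added on a log axis, for 5 classes on the x axis (DZ dark zone-like, LZ light zone-like, N/M naive or memory-like, PL plasma-lineage, T T cell-like); each point is a library and each bar the mean of 6 libraries. Smc3 wt/- replicate 2 (open square) lies below the others for S1pr2 in each zone (33.5 and 6.38 CPM) and above them for Ccr6 (95.1 and 189 CPM).

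Egress and resting-cell genes were highest in naive or memory-like and T cell-like cells. Klf2 (ENSMUSG00000055148, chromosome 8, 72319033 to 72321656, plus strand) stood at 1350, 1230 and 1220 CPM in naive or memory-like cells of Smc3 wt/wt libraries, then at 1870, 1060 and 1230 CPM among those labelled Smc3 wt/-. T cell-like cells had 1410, 1030 and 1230 CPM and 1200, 457 and 1110 CPM. The order of these classes differed between libraries, with naive or memory-like higher in 4 of 6 when scaled to total UMIs (log2 ratio 0.36), in 5 of 6 without immunoglobulin genes (0.39) and in 6 of 6 under RLE (0.50) and TMM scaling (0.65). DZ-like cells had 34.4, 27.6 and 28.5 CPM and 43.5, 363 and 24.8 CPM, so that 1 library lay an order of magnitude above the rest.

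Plasma-lineage cells held an intermediate Klf2 level of 138 ± 30.6 CPM (SD, n = 6), above the LZ-like level of 48.9 ± 26.2 CPM. Without Smc3 wt/- replicate 2 naive or memory-like exceeded T cell-like cells in 3 of 5 libraries on total UMIs, followed by plasma-lineage (145 ± 27.8 CPM), LZ-like (38.7 ± 8.83 CPM) and DZ-like (31.8 ± 7.45 CPM), and the LZ-like level exceeded the DZ-like level in 5 of 5 libraries (log2 ratio 0.25 ± 0.15). With that library included, DZ-like was the higher in 1 of 6. Thinned cells with a Klf2 UMI made up 67.7% of naive or memory-like (65.0 to 70.4), 50.9% of T cell-like, 16.4% of plasma-lineage and 6.03% of DZ-like cells (5.41 to 6.70). Without that library they made up 71.9% of naive or memory-like and 62.1% of T cell-like cells, and again 16.4% of plasma-lineage cells (52 of 317). Unthinned, the 6-library shares were 77.4%, 53.5%, 42.5% and 14.9%. Myeloid-like cells stood at 55.8% thinned, so no class here gave a background for Klf2, and these are shares of cells with a UMI, not of cells expressing the gene.

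S1pr1 (ENSMUSG00000045092, chromosome 3, 115710433 to 115715072, minus strand), the egress receptor, had the same high and low classes. It stood at 55.7, 117 and 120 CPM in naive or memory-like cells of Smc3 wt/wt libraries, then at 91.4, 59.2 and 107 CPM among those labelled Smc3 wt/-. T cell-like cells averaged 104 ± 45.5 CPM (SD, n = 6), and the order of these 2 classes was split, 3 libraries against 3. DZ-like cells averaged 8.95 ± 5.29 CPM, plasma-lineage 8.23 ± 3.80 and LZ-like 3.94 ± 2.25. Smc3 wt/- replicate 2 was the highest DZ-like library, at 18.2 CPM, and the lowest plasma-lineage one, at 1.4 CPM. Without it plasma-lineage cells (9.59 ± 2.02 CPM) stood above DZ-like cells (7.10 ± 3.07 CPM) in 4 of 5 libraries. Naive or memory-like exceeded DZ-like cells in 6 of 6 libraries, by a log2 ratio of 2.81 ± 0.94. The LZ-like level rests on 35 UMIs.

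Ccr7 (ENSMUSG00000037944, chromosome 11, 99144196 to 99155077, minus strand) was high in T cells and low in the GC. T cell-like cells held 154, 173 and 287 CPM among Smc3 wt/wt libraries, then 158, 32.8 and 198 CPM among those labelled Smc3 wt/-, and naive or memory-like cells 73.6 ± 13.5 CPM (SD, n = 6). T cell-like exceeded naive or memory-like cells in 5 of 6 libraries, and in 5 of 5 without Smc3 wt/- replicate 2 (log2 ratio 1.29 ± 0.43). GC classes were low, at a median of 6.67 CPM in LZ-like and 0.702 CPM in DZ-like cells, and Smc3 wt/- replicate 2 was the highest library in each, at 57.4 and 19.6 CPM.

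Plasma-lineage cells had next to no Ccr7, at 9 UMIs in 2073 cells. After thinning 0 of 2058 plasma-lineage cells had a UMI, which allows a share of up to 0.146% (0.179% by the exact interval), and 0 of 317 without Smc3 wt/- replicate 2, which allows up to 0.946% (1.16%), while 16.0% of T cell-like (10.9 to 22.3) and 10.1% of naive or memory-like cells (8.46 to 12) had one. Unthinned, the shares were 0.289% (0.106 to 0.629), 20.7% and 16.5%, at median depths of 14830, 1647 and 2456 UMIs. Plasma-lineage cells were the deepest of the 5 compared classes, with much of that depth in immunoglobulin, and served as the background for this gene.

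Gpr183 (ENSMUSG00000051212, chromosome 14, 121952551 to 121965195, minus strand) was high in T cell-like (118 ± 45 CPM) and naive or memory-like cells (93.2 ± 17.8 CPM, SD, n = 6), which kept no common order. LZ-like cells had 35.1, 16.5 and 9.45 CPM among Smc3 wt/wt libraries, then 15.8, 113 and 13.6 CPM among those labelled Smc3 wt/-. DZ-like cells had 2.75, 3.38 and 2.68 CPM and 4.39, 54.5 and 3.6 CPM. LZ-like exceeded DZ-like cells in 6 of 6 libraries, with a log2 ratio of DZ-like over LZ-like of -1.31 ± 0.54 (SD, n = 6). Outside Smc3 wt/- replicate 2 the DZ-like values lie below the 5 CPM added, which makes this ratio smaller. Plasma-lineage cells averaged 20.2 ± 10.1 CPM, and without Smc3 wt/- replicate 2 they stood at 23.8 ± 5.35 CPM beside 18.1 ± 9.91 CPM in LZ-like cells, an order that held in 3 of 5 libraries.

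Ccr6 (ENSMUSG00000040899, chromosome 17, 8236043 to 8257141, plus strand) was a gene of the naive or memory-like class. It stood at 114, 117 and 147 CPM there among Smc3 wt/wt libraries, then at 120, 249 and 128 CPM among those labelled Smc3 wt/-, and 27.6% of thinned cells had a UMI (25.0 to 30.3), against 0.218% of myeloid-like cells (0.00552 to 1.21). Without Smc3 wt/- replicate 2 these were 21.2% (18.3 to 24.3) and 0 of 41, which allows up to 7.32% (8.60% by the exact interval). Unthinned the 6-library shares were 32.1% and 0.303%. LZ-like cells had 3.19, 5.04 and 7.09 CPM among Smc3 wt/wt libraries, then 6.76, 189 and 7.53 CPM among those labelled Smc3 wt/-. DZ-like cells had 0, 0.298 and 0.268 CPM (0, 3 and 3 UMIs) and 1.46, 95.1 and 1.4 CPM (7, 68 and 14 UMIs). LZ-like exceeded DZ-like cells in 6 of 6 libraries (log2 ratio of DZ-like over LZ-like -0.94 ± 0.16, SD, n = 6). Outside Smc3 wt/- replicate 2 the DZ-like values lie below the 5 CPM added, so the size and SD of this ratio depend on that constant. In Smc3 wt/wt replicate 1 the order is 0 UMIs against 3.19 CPM.

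Counted over the members, 3 of 9 were higher in DZ-like than LZ-like cells in every library (Cxcr4, S1pr2 and Gna13) and 3 of 9 were lower (Cxcr5, Gpr183 and Ccr6). Among all 7155 genes with a mean of 10 CPM or more in either zone, 22.8% were higher in DZ-like and 18.6% higher in LZ-like cells in every library. S1pr1 did not reach that level. Without Smc3 wt/- replicate 2 the members counted 3 and 4, Klf2 joining the second set, against 26.7% and 25.1% of 7139 genes. Ccr6 (0.686 CPM in DZ-like and 5.92 CPM in LZ-like cells) and Ccr7 (0.693 and 5.29 CPM) then also lay under that level. S1pr1 joined the first set without Smc3 wt/wt replicate 2, and Ccr7 the second without Smc3 wt/wt replicate 1. Classes are clusters of the same cells, so these orders are descriptions with no test. A sum of 3 naive or memory markers was likewise higher in LZ-like than DZ-like cells in every library (medians of 61.9 and 30.7 CPM). The part of naive or memory-like cells or their RNA in these orders was not tested.

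**Figure D2:**
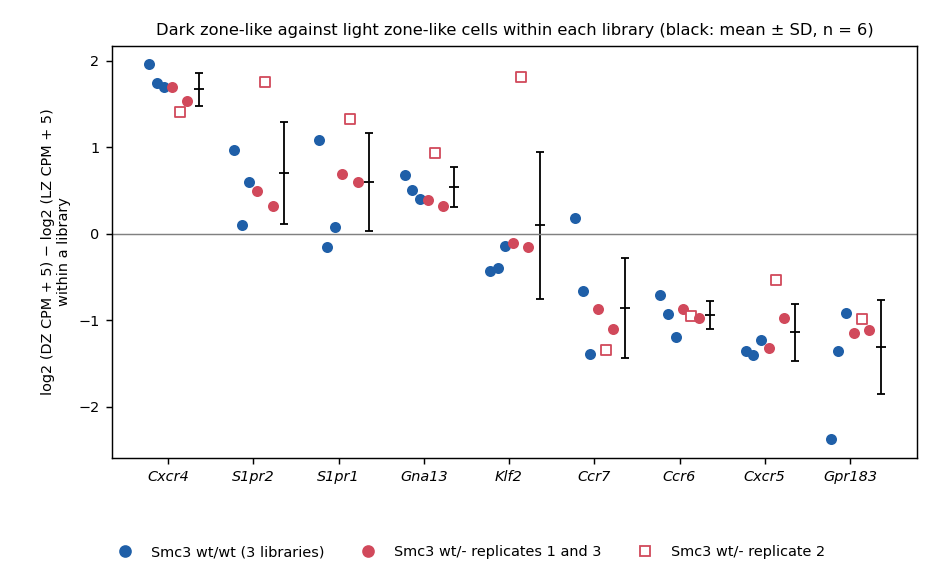
Log2 ratio of the DZ-like over the LZ-like level within each library (y axis, CPM with 5 added) for the 9 genes, ordered by mean; points are libraries and black bars the mean ± SD of 6. Cxcr4 lies above 0 in every library (mean 1.67) and Cxcr5 below 0 in every library (mean -1.14), while the Klf2 point of Smc3 wt/- replicate 2 alone is above 0.

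CPM relates a gene to all transcripts of its class, and immunoglobulin transcripts take much of that total in plasma-lineage cells. The median log2 ratio of all genes was 0.03 between DZ-like and LZ-like cells but 0.77 between DZ-like and plasma-lineage cells, 0.75 for LZ-like and 0.60 for naive or memory-like over plasma-lineage cells. Under scalings that lower this shift, plasma-lineage cells stood above DZ-like cells for S1pr1, and the orders of LZ-like and plasma-lineage cells for Cxcr4 and Gpr183, and of naive or memory-like and plasma-lineage cells for Cxcr4 and S1pr2, also turned. Against T cell-like cells, mean ratios turned under RLE and TMM scaling in naive or memory-like cells for Cxcr5 and S1pr1 and in DZ-like cells for Ccr6. They turned under TMM alone in naive or memory-like cells for Gpr183 (0.01) and in plasma-lineage cells for S1pr2 (0.09), and under RLE alone in LZ-like cells for Gna13 (-0.03). TMM moved the median of all genes between naive or memory-like and T cell-like cells from -0.10 to 0.15. Fewer expressing cells and less RNA per cell cannot be told apart in such sums.

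In Smc3 wt/- replicate 2, Ccr6, Gpr183, Ccr7 and Klf2 lay above and S1pr2 and Gna13 below the other libraries in either zone, beside its marker sums. Its Klf2 level was 99.9 CPM in LZ-like cells, against 28.2 to 47.9 CPM in the others. S1pr1 and Cxcr4, at 4.25 CPM each in its LZ-like cells, lay within the range of the others (1.41 to 7.78 CPM for S1pr1 and 3.76 to 12.8 CPM for Cxcr4), on 2 UMIs each. In its DZ-like cells S1pr1, at 18.2 CPM, was above the 4.7 to 12.4 CPM of the others, and Cxcr4, at 19.6 CPM, was below their 20.3 to 64.1 CPM. Cxcr5 was above the others in the DZ-like cells of this library and below them in its LZ-like cells, at the values given above. Its DZ-like class held 126 cells, of which 86 had a UMI of a GC marker and 40 had none. Ccr6 stood at 62.3 CPM in the former and 178 CPM in the latter, S1pr2 at 46.8 and 0 CPM, and Klf2 at 386 and 307 CPM. In its LZ-like class, 55 cells with a GC marker UMI had 166 CPM of Ccr6 and 9.94 CPM of S1pr2, and 41 cells without one had 231 and 0 CPM. Over all DZ-like cells, marked or not, the other libraries had 0 to 1.46 CPM of Ccr6. A GC marker UMI can also come from free RNA, and the part of admixed cells in these values was not tested.

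LZ-like cells without a GC marker UMI were few, at 81 of 1327, and 41 of the 81 came from Smc3 wt/- replicate 2. They were shallower, at 4300 against 6220 UMIs per cell, and the part of depth in this split was not tested. Their S1pr1 level was 63.6 ± 54.6 CPM against 1.54 ± 1.74 CPM in those with one (SD, n = 6), on 17 and 18 UMIs, Gpr183 144 ± 108 against 32.5 ± 44.8 CPM and Ccr7 92 ± 85.4 against 10.5 ± 17.7 CPM, each higher in 5 of 6 libraries. S1pr2 was at 0 UMIs in these 81 cells and at 78.8 ± 36.3 CPM in the rest, and Cxcr5 did not share this split, at 141 ± 170 against 102 ± 14.1 CPM.

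Within T cell-like cells the members separated cells by Cxcr5. The 71 cells with a Cxcr5 UMI had 278 ± 158 CPM of Gna13, against 61.6 ± 17.5 CPM in the 460 without (SD, n = 6), higher in 6 of 6 libraries. Klf2 ran the other way, at 319 ± 199 against 1230 ± 380 CPM, lower in 6 of 6, and so did S1pr1, at 57.4 ± 42.4 against 114 ± 47.5 CPM. Ccr7 was lower in 5 of 6 libraries, at 74.7 ± 104 against 189 ± 86.4 CPM.

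Other genes were read in the same split, chosen after their values were seen. Pdcd1, which encodes the PD-1 receptor, stood at 569 ± 313 against 103 ± 79.4 CPM, and Izumo1r, which encodes the folate receptor family member FR4, at 647 ± 216 against 406 ± 72.5 CPM, each higher in 6 of 6 libraries. Bcl6, which encodes a transcription factor of GC B-cells and follicular helper T cells, was at 12.7 ± 20.2 against 5.97 ± 6.89 CPM on 3 and 7 UMIs, higher in 2 and lower in 2 of 6 libraries. Cd79a, a B-cell receptor gene, was also higher in 5 of 6 libraries, at 212 ± 166 against 78.5 ± 43.8 CPM. The part of B-cell RNA in the Cxcr5 split was not tested. Cells with a Cxcr5 UMI were deeper, at 2670 against 2140 UMIs per cell.

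**Figure D3:**
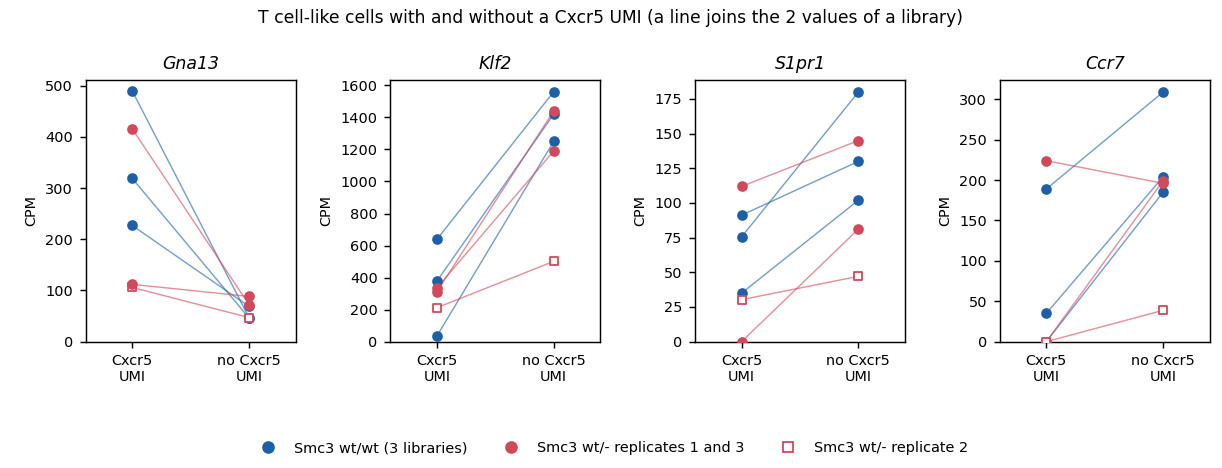
CPM of Gna13, Klf2, S1pr1 and Ccr7 (y axes from 0) in T cell-like cells with and without a Cxcr5 UMI; each point is a library and lines join the values of 1 library. Every library has more Gna13 and less Klf2 and S1pr1 in cells with a Cxcr5 UMI (means of 278 against 61.6 CPM for Gna13 and 319 against 1230 CPM for Klf2).

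Cells with a UMI of Cd8a or Cd8b1 (107 of 531) had another pattern. Klf2 was higher in them in 6 of 6 libraries, at 1730 ± 580 against 882 ± 277 CPM (SD, n = 6), and Ccr7 in 5 of 6, at 262 ± 122 against 135 ± 77.1 CPM. S1pr2 (3.50 against 28.3 CPM) was lower in 6 of 6 and Cxcr5 (18.2 against 104 CPM) in 5 of 6 libraries, on 1 and 4 UMIs in the Cd8 cells. Cd79a was also lower in 6 of 6, at 21.0 ± 21.1 against 127 ± 44.5 CPM, and the part of B-cell RNA in this split was not tested. These splits are descriptions, since the cells were chosen by their own transcripts.

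Naive or memory-like cells were split by Ighd, the IgD heavy chain of naive B-cells. The 853 cells with an Ighd UMI had 92.7 ± 17.1 CPM of Ccr7 against 56.2 ± 16.5 CPM in the 1009 without (SD, n = 6), higher in 5 of 6 libraries. Klf2 was at 1370 ± 422 against 1290 ± 210 CPM and Gpr183 at 96.3 ± 19.1 against 93.0 ± 24.9 CPM, differences smaller than the spread between libraries.

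The same class was also split by Ccr6. The 597 cells with a Ccr6 UMI had 1020 ± 285 CPM of Klf2 against 1530 ± 276 CPM in the 1265 without, and 64.5 ± 14.8 against 82.1 ± 22.5 CPM of Cxcr5 (SD, n = 6), each lower in 6 of 6 libraries. Cells with a Ccr6 UMI were also deeper, at 4130 against 2740 UMIs per cell, and their Mki67 level was 68.1 ± 31.0 against 42.8 ± 22.9 CPM. The part of depth in this split was not tested.

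Across 45 sums of a class in a library, S1pr2 and Gna13 followed each other with a Pearson r of 0.85 on log2 CPM. Klf2 followed Gpr183 (0.85) and S1pr1 (0.81), and it ran against S1pr2 (-0.69). Among 7405 genes the 3 most like S1pr2 were H1fx (0.92), Hmces (0.91) and Ppp4r2 (0.90), and those most like Gna13 were Polr2g, Cnot2 and Tcea1 (0.91 each). For Cxcr4 they were Cdkn2aipnl (0.78), Nlrx1 (0.78) and Mad1l1 (0.75), and for Cxcr5 Grap (0.90), Ablim1 (0.88) and Rhof (0.88). For S1pr1 they were another member, Ccr7 (0.89), then Fam169b (0.87) and Ifi214 (0.87), and for Klf2 Anxa6 (0.95), Myl12b (0.94) and S100a10 (0.93). For Gpr183 they were Ifi203 (0.93), H2-K1 (0.92) and Anxa6 (0.92), for Ccr7 Grap2 (0.90), Tspan32 (0.90) and Ogt (0.89), and for Ccr6 Pcp4 (0.92), Hs3st1 (0.89) and Il9r (0.89). Sums of a library share its depth and its free RNA, and these values describe likeness only.

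Other genes of the pathway were counted in 5 lists, beside the 22.8% and 18.6% of all 7155 genes that were higher in DZ-like and in LZ-like cells in every library. A gene counted as measured at a mean of 10 CPM or more in either zone, so that one near 0 in the other zone had to differ, and the counts are descriptions. Of 31 genes of G proteins and their signaling, 21 were measured in the zones, and 16 of these were higher in DZ-like and 1 in LZ-like cells in every library, with a median log2 ratio of 0.36 beside 0.03 over all genes. The 3 most abundant of them were Rac2 (-0.04 ± 0.07), Gnas (0.33 ± 0.08) and Gnai2 (0.49 ± 0.17, SD, n = 6), which encode a small GTPase and G protein α subunits. Of 10 transcription factors, 7 were measured, 4 of them higher in DZ-like and 0 in LZ-like cells (median 0.70). Among the most abundant of these Ebf1, a B-cell identity factor, had a ratio of -0.06 ± 0.11, Bach2, a repressor of plasma cell fate, 1.16 ± 0.25 and Foxo1, a factor of the DZ program, 0.70 ± 0.20.

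Receptors outside the member set were mostly not measured in the zones, with 7 of 32, of which 2 were higher in DZ-like and 1 in LZ-like cells (median -0.24). S1pr4 (0.96 ± 0.28) and Ackr4, a scavenger of CCL19 and CCL21 (1.93 ± 0.29), were the higher ones, and Gpr18 (-0.72 ± 0.24) was the lower one. Of 16 adhesion and egress genes, 14 were measured, 2 higher in DZ-like and 3 in LZ-like cells (median -0.08), with Coro1a, an actin-binding protein, at 0.27 ± 0.04, Cd24a at 0.78 ± 0.14 and Msn, a membrane-cytoskeleton linker, at -0.03 ± 0.03. Of 20 ligands and enzymes of ligand metabolism, 4 were measured, 2 higher in DZ-like and 0 in LZ-like cells (median 0.19), namely Sgpp1 (0.30 ± 0.14) and Sphk2 (0.29 ± 0.20), enzymes of sphingosine phosphate turnover, beside Sgpl1 (0.09 ± 0.83). Against 22.8% and 18.6% of all genes, nothing was read from these last 3 counts.

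Between LZ-like and naive or memory-like cells 17.0% of 7357 genes were higher in naive or memory-like and 27.5% higher in LZ-like cells in every library. Of the 12 receptors measured there, 6 were under 10 CPM in LZ-like cells and entered through the naive or memory-like class, so no count over this list is given. The other 6 are given as values. S1pr4 had a log2 ratio of LZ-like over naive or memory-like cells of -2.65 ± 0.80 (15.0 and 117 CPM), Cxcr3, a receptor of interferon-induced chemokines, -2.28 ± 0.76 (14.8 and 71.7 CPM) and Gpr18 -0.66 ± 0.12 (99.5 and 159 CPM, SD, n = 6). Gpr34 had -1.84 ± 0.93, Gpr174 -1.50 ± 0.41 and S1pr3 0.45 ± 1.07, the last higher in LZ-like cells in 5 of 6 libraries.

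**Figure D4:**
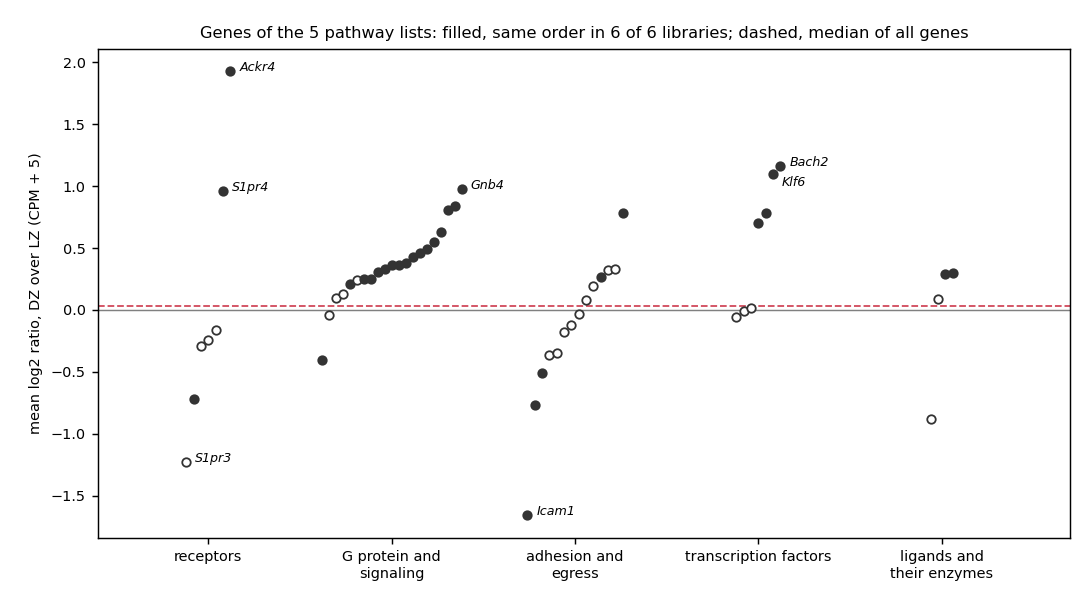
Mean log2 ratio of DZ-like over LZ-like cells (y axis, CPM with 5 added) for each measured gene of the 5 pathway lists on the x axis; filled points have the same order in 6 of 6 libraries, and the dashed line is the median of all genes (0.03). The G protein list lies mostly above the line (median 0.36), and the receptors list holds points on either side, from S1pr3 (-1.23) to Ackr4 (1.93).

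Genotypes were compared on library sums within each class with the edgeR quasi-likelihood test, 3 libraries against 3. In DZ-like cells 0 of 9909 genes passed an adjusted p of 0.05 (0.00%), while 233 had an edgeR p below 0.05 before adjustment and DESeq2 called none (0). Of the 9 members 8 passed the low-count filter and none passed the threshold. In LZ-like cells 0 of 7649 genes passed (0.00%) (137 unadjusted, 0 by DESeq2), and 7 members were tested. In naive or memory-like cells 0 of 6960 passed (0.00%, 131 unadjusted, 0 by DESeq2), in plasma-lineage cells 0 of 5966 (0.00%, 211 unadjusted, 1 by DESeq2), in T cell-like cells 0 of 2262 (0.00%, 58 unadjusted, 0 by DESeq2) and over all kept cells 0 of 11844 (0.00%, 175 unadjusted, 0 by DESeq2). Pathway list genes likewise gave no call.

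S1pr2 and Gna13 were lower in every DZ-like sum of the libraries labelled Smc3 wt/-, as were 4.80% of all genes tested. Gna13 differed by -0.59 on the log2 scale (SE 0.22, edgeR unadjusted p 0.0248, adjusted p 1.0), at 120 ± 47.0 against 189 ± 20.1 CPM (SD, n = 3). Without Smc3 wt/- replicate 2 it was -0.38 (SE 0.11, edgeR unadjusted p 0.00745, adjusted p 1.0). S1pr2 had -0.52 (95% limits -1.20 and 0.17), or -0.24 (-0.52 and 0.03) without that library. Gna13 was also lower in every LZ-like sum, as were 4.45% of genes, at -0.48 (SE 0.29) with that library and -0.22 (SE 0.15) without it, and in every sum over all kept cells, as were 6.90% of genes, at -0.64 (SE 0.41) and -0.27 (SE 0.09). None of these passed the threshold, and the 95% limits of Gna13 in DZ-like cells were -1.08 and -0.09. With the presence of Y-linked transcripts as a covariate, DZ-like Gna13 had -0.76 and S1pr2 -0.81, also not past the threshold.

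Ccr6 and Gpr183 were higher in every DZ-like sum of the libraries labelled Smc3 wt/-, as were 4.08% of genes. The fitted log2 fold change of Ccr6 was 6.27 (SE 2.20, edgeR unadjusted p 0.0197, adjusted p 1.0), and 2.32 (SE 0.53, edgeR unadjusted p 0.00196, adjusted p 1.0) without Smc3 wt/- replicate 2. It rests on the 0, 3 and 3 UMIs of the Smc3 wt/wt libraries, so its size depends on the prior count of the fit. Ccr6 passed the low-count filter here only through the libraries labelled Smc3 wt/-, so its order and fold change are descriptions. Gpr183 had 2.02 (SE 1.09) with that library and 0.34 (SE 0.28) without it. Klf2, whose libraries overlapped, went from 2.21 (SE 0.93) to 0.14 (SE 0.20).

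In LZ-like cells Ccr6 had the lowest p of the members, at 3.34 on the log2 scale (SE 1.37, adjusted p 1.0 in edgeR), with overlapping libraries. Without Smc3 wt/- replicate 2 it was 0.28 (SE 0.42), and S1pr1 then had the lowest p, at -1.84 (SE 0.62, edgeR unadjusted p 0.011, adjusted p 1.0), on 1, 17 and 10 UMIs among Smc3 wt/wt libraries, then 2 and 3 among those labelled Smc3 wt/-. S1pr1 did not pass the low-count filter with all 6 libraries, and passed it without Smc3 wt/- replicate 2 only through Smc3 wt/wt libraries. For Ccr6 the adjusted p was 0.023 (log2 fold change 3.26) when no low-count filter was applied. In naive or memory-like cells S1pr2 led, at -1.42 (SE 0.63, edgeR adjusted p 0.999), and -0.76 (SE 0.41) without that library. In plasma-lineage cells Klf2 had 0.58 (SE 0.43) and -0.03 (SE 0.25) without it, and in T cell-like cells Ccr7 had -0.85 (SE 0.54) and -0.27 (SE 0.36). Over all kept cells Ccr6 had 1.91 (SE 0.91) and 0.14 (SE 0.19). The remaining tested members ranged from -0.38 (Cxcr4, SE 0.34) to 0.21 (Cxcr5, SE 0.21) in DZ-like cells. They ranged from -0.51 to 1.48 in LZ-like, from -0.35 to 0.47 in naive or memory-like, from -0.50 to 0.13 in plasma-lineage and from -0.68 to 0.04 in T cell-like cells.

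**Figure D5:**
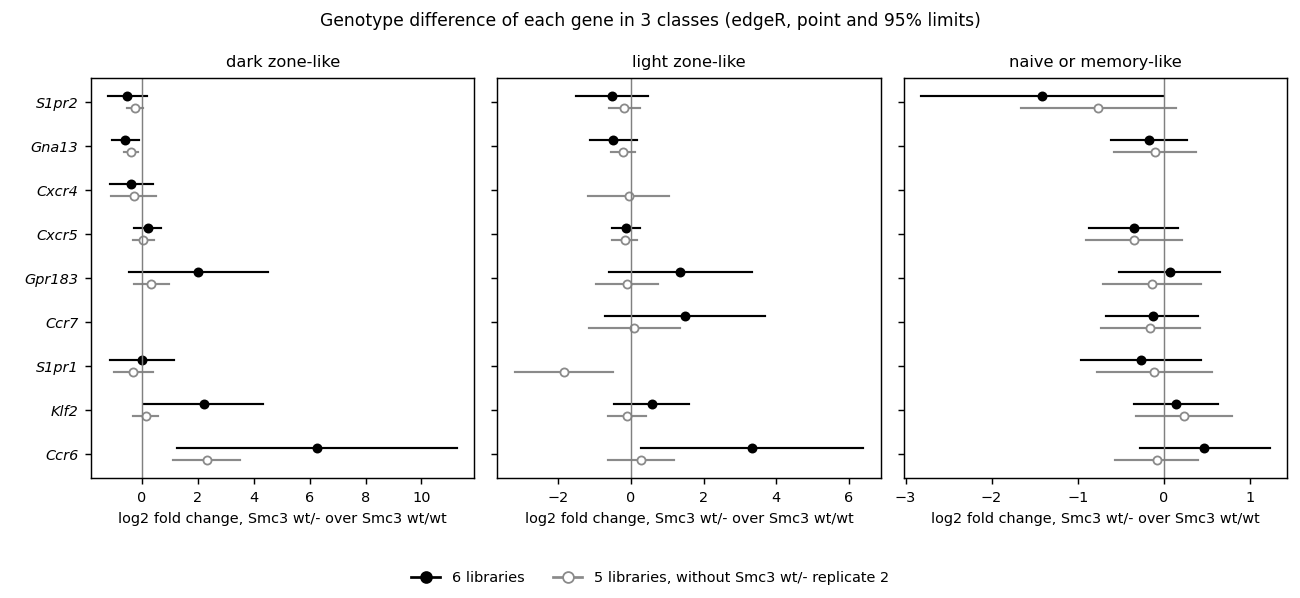
Log2 fold change of Smc3 wt/- over Smc3 wt/wt (x axis, scale differs between panels) with 95% limits in DZ-like, LZ-like and naive or memory-like cells, for 6 libraries (filled) and for 5 without Smc3 wt/- replicate 2 (open); a missing point did not pass the low-count filter. In DZ-like cells Ccr6 moves from 6.27 to 2.32 and Klf2 from 2.21 to 0.14 when that library is left out.

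Whether a genotype difference changed between the zones was tested as an interaction, the Smc3 wt/- effect in LZ-like cells minus that in DZ-like cells, with each library as a factor. Of 8802 genes 4 passed the threshold (0.0454%) (331 unadjusted, 0 by DESeq2). These were Hba-a1, Hba-a2, Hbb-bs and S100a10, and none of the 9 members was among them. The 4 haemoglobin genes summed to 1960 CPM in LZ-like cells of Smc3 wt/- replicate 3, against 63.9 to 255 CPM in those of the other libraries, and to 68.8 to 1020 CPM in DZ-like cells, and their part in these calls was not tested. The same test also made calls on simulated counts with nothing changed, so these 4 are a description. Ccr6 came closest, at -2.88 (SE 0.64, edgeR unadjusted p 0.000114, adjusted p 0.133), and -2.01 (SE 0.79, adjusted p 1.0) without Smc3 wt/- replicate 2. Its adjusted p was 0.00178 without the low-count filter (-2.86) and 0.0283 without Smc3 wt/- replicate 3 (-3.10), and it ranged up to 1.0 over the alternatives. The DZ-like side of this value holds the 0, 3 and 3 UMIs given above.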

How the data were processed

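The authors processed 10x Genomics 3′ v2 libraries with Cell Ranger 3.0.2 and deposited raw UMI counts per gene and barcode (mm10), 1 matrix per library. Their processing notes also name R 4.0.2 and Seurat 4.0.0. Deposited counts were used as they stand. Barcodes with at least 500 genes and at most 10% mitochondrial UMIs were kept, and 721 predicted doublets (3.34%) were removed with Scrublet (scanpy 1.11.5). Libraries were integrated in Seurat 5.3.0 (RPCA, 1858 variable genes without the members, pathway lists, immunoglobulin, mitochondrial and ribosomal genes, 30 components, resolution 0.5). Classes were named from marker lists by a rule written after the clusters were seen, and members and lists were chosen with earlier results of these data known.

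UMIs were summed per library and class, and a class entered a comparison in libraries with at least 20 of its cells. Genotypes were tested with edgeR 4.0.16 (TMM, filterByExpr, quasi-likelihood, Benjamini-Hochberg over all genes at 0.05), and DESeq2 1.42.0 was an alternative. Each test was checked on simulated counts, where the interaction, LZ-like and T cell-like tests also made calls with nothing changed, most of them in the interaction. Class sums held 129963 to 25042949 UMIs, and the smallest class sum of a library had 34 cells. Classes were compared by within-library log2 ratios of CPM with 5 added, without a test. A genotype value was named where the libraries did not overlap or where its p was the lowest of the members in the class. Replicate numbers did not enter this rule. From each pathway list genes past the threshold were to be named, otherwise the 3 most abundant, and for each member the 3 most similar genes were sought. The Klf2 value in DZ-like cells was added after its value was seen, as were Ackr4, S1pr4 and S1pr3 in the plot of pathway lists, and Cd79a, Pdcd1, Izumo1r and Bcl6, and the receptors given by value between LZ-like and naive or memory-like cells. Same-numbered libraries correlated in their deviations from the group means at 0.111 to 0.208 in DZ-like and 0.135 to 0.311 in naive or memory-like cells. They were taken as paired in those classes in an alternative fit with the replicate number as a block, which changed no call. The genotype values given are from fits without this block. Alternatives were other scalings, no low-count filter, no immunoglobulin genes, looser cell filters, doublets kept, no integration, another resolution, a replicate block, a covariate from Y-linked transcripts and each library left out.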

Additional observations from a re-analysis of the deposited data

How the results depend on the processing

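Genotype calls were 0 in every class and 4 for the interaction, and some alternatives moved them. Without the low-count filter there were 17 calls in LZ-like, 39 in naive or memory-like, 5 in plasma-lineage and 6 in T cell-like cells and 23 for the interaction. Without integration there was 1 call in DZ-like cells and 12 for the interaction. DESeq2 gave 1 in plasma-lineage cells and 0 for the interaction, and the presence of Y-linked transcripts as a covariate gave 13 for the interaction. The replicate number as a block gave 15 calls for the interaction and changed no call in DZ-like or naive or memory-like cells. In LZ-like cells 1 of the 3 same-numbered correlations was 0.0579, so the numbers were not taken to pair the interaction. Leaving out single libraries gave 0 to 1 calls in plasma-lineage cells (1 without Smc3 wt/- replicate 2) and 1 to 8 for the interaction (1 without Smc3 wt/wt replicate 2, 6 without Smc3 wt/- replicate 2, 8 without Smc3 wt/- replicate 3). The cause was not tested. Of the named members' genotype values, 191 kept direction and side of the threshold, 3 crossed it (all Ccr6) and 1 reversed, Klf2 in plasma-lineage cells (-0.03 without Smc3 wt/- replicate 2, and -0.03 to 0.93 over the single libraries left out). The count of members higher in DZ-like than LZ-like cells lay between 3 and 4 under every setting run. Of the class ratios 1204 moved by less than 1 SD and 56 by more, and of the shares of cells with a UMI 65 of 90 moved when thinning changed and 15 of 45 without Smc3 wt/- replicate 2, a setting added after the data were seen. Depth limits Cxcr4 in T cell-like cells (8 UMIs), S1pr1 in LZ-like cells (35) and Ccr7 in plasma-lineage cells (9). The TMM scaling over class sums and the list counts under each setting were added after the data were seen. Without integration the LZ-like class of Smc3 wt/- replicate 2 was too small and was left out.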

Other observations

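Members were also read in cells outside the 5 compared classes. The largest cluster, 3498 cells left unnamed by the marker rule, had 162 ± 63.1 CPM of S1pr2, 149 ± 54.2 of Gna13, 92.5 ± 7.0 of Cxcr5 and 28.6 ± 22.8 of Cxcr4 (SD, n = 6). It thus held the retention pair and Cxcr4 above the LZ-like class, each in 6 of 6 libraries (in Smc3 wt/- replicate 2 Cxcr4 rests on 1 UMI here and 2 UMIs in LZ-like cells), together with Cxcr5 near the LZ-like level. Klf2 stood at 119 ± 96.0 CPM there, also above LZ-like cells in 6 of 6 libraries. Its Mki67 level was 25.1 ± 13.8 CPM and its Cd83 level 394 ± 135 CPM. Its best-matching list was erythroid, with 3 markers among its top 10 genes, beside a Cd79a level of 2492 CPM. A sum of 6 GC B-cell markers had a median of 2100 CPM there, against 2050 CPM in DZ-like cells. In Smc3 wt/- replicate 2, 4 haemoglobin genes summed to 128000 CPM in this cluster, against 103 to 3280 CPM in the other libraries.

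Recycling-like cells, named from a list of Myc and ribosome biogenesis genes, had Klf2 at 12.3 ± 3.91 CPM (8.85 to 19.2, n = 6), with S1pr2 at 88.0 ± 38.2 and Cxcr5 at 33.1 ± 5.97 CPM. S phase cells had 123 ± 34.3 CPM of S1pr2, 48.1 ± 9.77 of Cxcr5 and 18.5 ± 8.17 of Cxcr4. Myeloid-like cells were compared in 3 libraries and had 599 ± 86.5 CPM of Klf2 and 50.9 ± 24.3 of Gpr183.

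Plasmablast-like cells, the plasma-lineage cluster with more Mki67 (164 against 20.5 CPM), were set beside the other plasma-lineage cluster in the 2 libraries with at least 20 cells of each, Smc3 wt/- replicate 2 and Smc3 wt/wt replicate 3, named in this order here. Gna13 was at 18 against 6.12 CPM and at 38.2 against 7.5 CPM. S1pr1 was at 11 against 0.0907 CPM and at 8.68 against 0 CPM, and Gpr183 at 10.3 against 0.816 CPM and at 36.4 against 0 CPM. Klf2 was at 448 against 54.5 CPM in the former library and at 148 against 118 CPM in the latter. Of the 1515 cells of the second cluster, 1431 came from Smc3 wt/- replicate 2, which also held 318 of the 558 plasmablast-like cells.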
